A study of Homo sapiens with 18 samples.

Results

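The Krüppel-like factors (KLF) examined here were KLF2, KLF3, KLF4, KLF5, KLF6, KLF7, KLF9, KLF10, KLF11 and KLF13, which were found by gene symbol in the RNA-seq count table, 10 genes of the 23622 listed. Of these, 8 passed the filter on low counts and were among the 15760 genes tested, and KLF4 and KLF5 did not pass it. RNA was measured in A2780, an ovarian carcinoma cell line that is sensitive to cisplatin, and in A2780cis, called Acis below, a resistant derivative obtained by long exposure to rising doses of cisplatin. Each line was sampled untreated and after 3 h in 200 µM cisplatin, a platinum drug whose DNA adducts block transcribing polymerases, with 3 libraries in each of the 4 groups. By the study's methods, Acis was also kept in culture with 1 µM cisplatin given at every 3 passages. Untreated therefore means without the 200 µM dose. No group carries a designed allele, and Acis is 1 derivative of 1 line, so that a difference between the lines may belong to these cultures and not to resistance. ATAC-seq, which reads where chromatin is open to a transposase, gave 1 peak list for each of the same 4 conditions.

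KLF proteins bind GC-rich boxes and CACCC boxes through C2H2 zinc fingers at their C-terminal end, and differ in the N-terminal part that recruits cofactors. KLF2, KLF4, KLF5, KLF6 and KLF7 act mainly as activators, several of them through the acetyltransferases p300 and CBP. KLF3 represses through the corepressor CtBP, and KLF9, KLF10, KLF11 and KLF13 carry a motif that binds SIN3A. Several of the genes are early-response genes, whose short-lived transcripts and proteins change within hours of a signal: KLF2 is induced by the kinase cascade MEK5-ERK5 through MEF2 factors, and KLF10 and KLF11 were described as genes induced by TGF-beta.

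Promoter sequence is shown for 4 start sites to which the results below return: those of KLF2 and KLF13, the genes that differed most between the lines, that of KLF9, which has the lowest GC share, and a second KLF11 start that lay in a peak listed only for Acis. The bases upstream of a start, 250 for 3 of them, come from RefSeq on GRCh38.p14, 5′ to 3′ on the gene's strand, in which 8 of the 10 genes were matched and 9 windows were searched. The KLF11 window lies inside the gene, in the first intron of its canonical transcript, and is given as 204 bases that end before an annotated exon of another transcript. Capitals mark a match to the MEF2 site, to the cyclic AMP response element (CRE) TGACGTCA, to its core TGACG on either strand, which the full CRE contains, to the AP-1 site TGANTCA, to the CArG box or to TATAAA.
KLF2 upstream of its start, chr19:16324576-16324825, plus strand: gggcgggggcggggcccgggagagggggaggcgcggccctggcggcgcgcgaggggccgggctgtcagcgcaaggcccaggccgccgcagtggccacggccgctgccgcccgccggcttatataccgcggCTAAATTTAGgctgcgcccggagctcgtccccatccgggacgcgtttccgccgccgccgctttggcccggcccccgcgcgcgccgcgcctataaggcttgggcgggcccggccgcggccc
KLF11 upstream of its second start, chr2:10043971-10044174, plus strand: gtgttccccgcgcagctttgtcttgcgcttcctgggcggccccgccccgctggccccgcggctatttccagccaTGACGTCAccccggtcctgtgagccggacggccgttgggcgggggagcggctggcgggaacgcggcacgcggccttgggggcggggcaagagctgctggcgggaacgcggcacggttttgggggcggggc
KLF13 upstream of its start, chr15:31326585-31326834, plus strand: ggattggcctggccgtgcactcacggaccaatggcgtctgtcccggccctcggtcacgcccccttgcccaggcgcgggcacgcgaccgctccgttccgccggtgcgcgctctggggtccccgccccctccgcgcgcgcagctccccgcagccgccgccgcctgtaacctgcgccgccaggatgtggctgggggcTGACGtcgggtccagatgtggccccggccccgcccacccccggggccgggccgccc
KLF9 upstream of its start, chr9:70414658-70414907, minus strand: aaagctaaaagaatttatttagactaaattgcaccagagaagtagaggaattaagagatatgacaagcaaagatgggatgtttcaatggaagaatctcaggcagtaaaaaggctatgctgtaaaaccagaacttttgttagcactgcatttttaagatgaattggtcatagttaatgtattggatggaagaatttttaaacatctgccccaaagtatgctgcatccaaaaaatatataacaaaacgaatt
The KLF2 window is 80.0% G or C and holds a match to the MEF2 site whose first base lies at position -120 from the start. Matches to the MEF2 site stand in 0.515% of all 35116 RefSeq windows of 250 bases, and in 1 of the 9 KLF windows. The window of the second KLF11 start holds the full CRE, found in 1.65% of all windows, and the KLF13 window holds only the core TGACG, found in 21.2%. In the KLF9 window, 32.4% G or C, none of these motifs matched, nor did GGGCGG or CACCC on either strand, which stand in 42.6% and 54.7% of all windows. GGGCGG matched 4 times in the KLF2 window and 3 times in that of KLF13. A match is a run of letters and not evidence that a factor was bound.

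The libraries held between 4130644 and 5072216 counts. Values below are normalized counts, that is counts divided by the effective size of the library and scaled to the mean library. By the study's methods each condition was seeded as triplicate wells, but no source used here says that the wells came from separate cultures or days, and 6 of 12 replicate pairs differed by less than counting noise. The p-values therefore measure the spread between these samples, which may be that between wells. In bulk RNA, fewer cells and less RNA per cell cannot be told apart. Of 9 epithelial markers, 3 were listed (EPCAM, KRT8 and KRT18), with a summed level of 34.6 to 51.3 normalized counts in the A2780 control libraries, 49.1 to 63.7 in A2780 cisplatin, 135 to 159 in Acis control and 146 to 154 in Acis cisplatin. The higher sum in Acis was KRT18, at 143 ± 9.67 against 25.5 ± 6.90 in the untreated lines (SD, n = 3), while KRT8, at 4.06 ± 2.47 against 15.6 ± 4.29, and EPCAM, at 0.73 ± 0.64 against 3.55 ± 1.29, were lower there in each library. All 4 fibroblast markers were listed, with sums of 1822 to 1993, 1291 to 1398, 31.9 to 49.0 and 30.5 to 41.3 in the same order, and none of the 4 endothelial or 4 leukocyte markers was listed. These markers move with the line, and their part in the line differences of the KLF genes was not tested.

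After cisplatin, KLF2, KLF6, KLF9, KLF10 and KLF11 rose in A2780 and KLF3, KLF7 and KLF13 fell. Each of the 8 tested genes thus changed by edgeR's test, while DESeq2 did not call the KLF3 fall (adjusted p = 0.121). In Acis, KLF2, KLF9, KLF10 and KLF11 rose and KLF13 fell by edgeR, and DESeq2 did not call the KLF10 rise (adjusted p = 0.141). The 5 that rose in A2780 stand against 21.2% of all tested genes called higher, and the 3 that fell against 28.2% called lower (edgeR's quasi-likelihood test, adjusted p under 0.05). For Acis, the 4 that rose stand against 9.35% of tested genes and the 1 that fell against 12.4%. The median log2 fold change of the 8 genes was 0.40 in A2780, with -0.01 over all tested genes, and 0.15 in Acis, with 0.01 over all. With the added demand of a log2 fold change of at least 1 in size, KLF2 in A2780 was the 1 KLF gene called higher, where 4.14% of tested genes were, and 0 KLF genes were called lower, where 1.48% were. Both counts come from edgeR with its filter: DESeq2 called 2 higher, KLF2 and the sparsely counted KLF4 (3.66 on the log2 scale, adjusted p = 0.0426), and 0 lower, and edgeR without the filter also gave 2 higher. No KLF gene met both demands in Acis, where 1.64% of tested genes were called higher and 0.374% lower. DESeq2 also called 0 there, and so did an unadjusted p, since the fitted changes in Acis ran from -0.22 to 0.63.

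**Figure D1:**
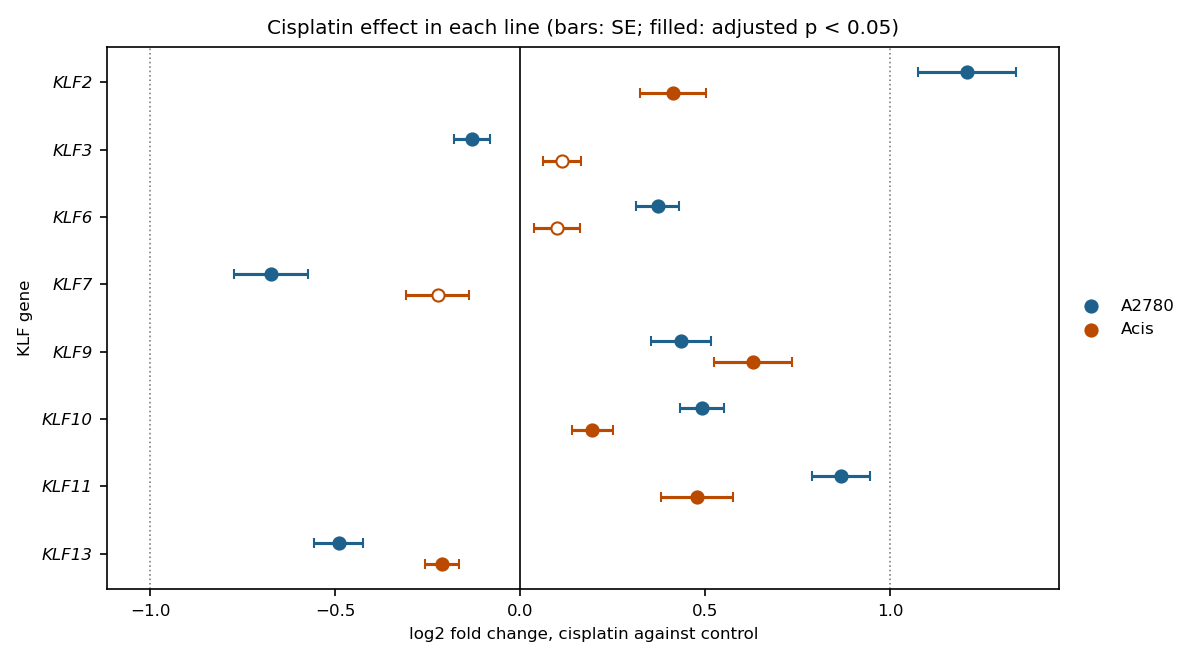
log2 fold change of each tested KLF gene after 3 h in cisplatin against the untreated control, in A2780 (blue) and Acis (orange), with bars of 1 SE from edgeR; filled points passed the test and dotted lines mark a log2 fold change of 1 in either direction. KLF2 reaches 1.21 in A2780 and 0.41 in Acis, and KLF9 has the largest change in Acis, 0.63.

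Among the tested activators, KLF2, a factor of endothelial and lymphocyte quiescence, had the largest fitted change. It had 54.1, 38.5 and 56.6 normalized counts in the A2780 control libraries and 112, 110 and 121 after cisplatin. In Acis it had 172, 160 and 131 in the controls and 209, 209 and 200 after cisplatin. Every cisplatin library lay above every control library of its line, and every untreated Acis library lay above every treated A2780 library. The rise was 1.21 ± 0.13 on the log2 scale in A2780 (SE, adjusted p = 2.51e-08) and 0.41 ± 0.09 in Acis (adjusted p = 0.00111). Untreated Acis exceeded untreated A2780 by 1.64 ± 0.13 (adjusted p = 7.97e-12), and the treated lines still differed by 0.85 ± 0.09 (adjusted p = 8.98e-09). The group means were 49.7 ± 9.82, 114 ± 5.52, 154 ± 21.0 and 206 ± 4.96 normalized counts (SD, n = 3) for A2780 control, A2780 cisplatin, Acis control and Acis cisplatin.

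KLF6, a widely expressed zinc finger activator reported to induce the cell cycle inhibitor CDKN1A, had 303, 316 and 279 normalized counts in the A2780 controls and 371, 395 and 398 after cisplatin. The Acis controls had 299, 292 and 301 and the treated Acis libraries 314, 331 and 310. The treated A2780 libraries lay above the libraries of all other groups, and the treated Acis libraries lay just above their controls. The rise in A2780 was 0.37 ± 0.06 on the log2 scale (SE, adjusted p = 5.32e-06), while the value in Acis was 0.10 ± 0.06 (adjusted p = 0.334). The untreated lines differed by -0.02 ± 0.06 (adjusted p = 0.867), and after cisplatin Acis was lower by -0.29 ± 0.06 (adjusted p = 7.18e-05).

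KLF7, an activator known from neuronal development, moved the other way. Its normalized counts were 139, 157 and 145 in the A2780 controls and 89.0, 89.9 and 97.1 after cisplatin. In Acis they were 165, 189 and 208 in the controls and 165, 150 and 164 after cisplatin. The groups were apart in A2780 and touched in Acis. KLF7 fell by 0.67 ± 0.10 on the log2 scale in A2780 (SE, adjusted p = 3.38e-06), and the value in Acis was -0.22 ± 0.09 (adjusted p = 0.0631, and 0.0164 without Acis control replicate 1). Acis was higher than A2780 without treatment, by 0.34 ± 0.09 (adjusted p = 0.00137), and after it, by 0.79 ± 0.10 (adjusted p = 7.8e-08).

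KLF4, one of the reprogramming factors of pluripotent cells, and KLF5, a growth-associated factor of epithelia, were near the limit of detection. KLF4 had 0, 1 and 0 raw counts in the A2780 controls, 4, 4 and 6 after cisplatin, 3, 1 and 0 in the Acis controls and 3, 2 and 2 after cisplatin. The A2780 groups did not overlap, and the ratio of their summed counts, 14 against 1, was 13.7 after scaling by library size, with a 95% exact binomial interval of 2.08 to 578 that covers counting error only. The same ratio in Acis, 7 against 4 counts, was 1.57 (0.399 to 7.31). For KLF5 the raw counts were 3, 5 and 3 in A2780 control, 4, 4 and 2 in A2780 cisplatin, 2, 1 and 1 in Acis control and 4, 1 and 4 in Acis cisplatin. Its treated-to-control ratios were 0.888 (0.338 to 2.30) in A2780 and 2.02 (0.563 to 8.96) in Acis, so that no change in KLF5 was detectable at this depth.

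KLF3, the repressor that works through CtBP, changed least in A2780. It had 607, 625 and 632 normalized counts in the A2780 controls and 546, 555 and 600 after cisplatin. The Acis controls had 490, 501 and 529 and the treated Acis libraries 532, 581 and 529. The A2780 groups lay just apart and the Acis groups touched. KLF3 fell by 0.13 ± 0.05 on the log2 scale in A2780 (SE, adjusted p = 0.0272). This call was lost with total counts as the library size (-0.01, adjusted p = 0.831) and with DESeq2 (-0.14, adjusted p = 0.121). It was also lost with a mean of at least 50 counts (-0.07, adjusted p = 0.205) and with the compared groups alone (-0.10, adjusted p = 0.0562). Leaving out A2780 control replicate 2 or 3 or A2780 cisplatin replicate 1 or 2 lost it too (-0.13 to -0.11, adjusted p = 0.0621 to 0.0992). In Acis the value was 0.11 ± 0.05 (adjusted p = 0.135). Untreated Acis was lower than untreated A2780 by -0.30 ± 0.05 (adjusted p = 1.45e-05), and the treated lines differed by -0.05 ± 0.05 (adjusted p = 0.374).

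Of the genes whose products bind SIN3A, KLF9, known as a target of glucocorticoid and thyroid hormone, rose in both lines. It had 143, 125 and 152 normalized counts in the A2780 controls and 179, 195 and 190 after cisplatin, and 76.5, 83.2 and 85.5 in the Acis controls and 132, 127 and 120 after cisplatin. Treated libraries lay above their controls in each line, and of the treated Acis libraries 2 lay inside the range of the A2780 controls and 1 below it. The rises were 0.43 ± 0.08 in A2780 (SE, log2, adjusted p = 6.64e-05) and 0.63 ± 0.10 in Acis (adjusted p = 5.55e-05). Acis was lower than A2780 untreated, by -0.77 ± 0.10 (adjusted p = 2.5e-07), and treated, by -0.58 ± 0.08 (adjusted p = 8e-07).

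KLF10 and KLF11, the pair first named TIEG1 and TIEG2 for their induction by TGF-beta, both rose in both lines. KLF10 had 362, 419 and 392 normalized counts in the A2780 controls, 530, 539 and 578 after cisplatin, 526, 533 and 581 in the Acis controls and 640, 647 and 585 after cisplatin. The treated A2780 libraries and the untreated Acis libraries covered the same range, and in each line treated libraries lay above controls. The rise was 0.49 ± 0.06 on the log2 scale in A2780 (SE, adjusted p = 1.17e-07) and 0.19 ± 0.06 in Acis (adjusted p = 0.0111), the latter lost when replicate 1 or 2 of the Acis controls or of the treated Acis libraries was left out (0.17, adjusted p = 0.0556 to 0.0654) and with DESeq2 (adjusted p = 0.141). Acis was higher by 0.48 ± 0.06 untreated (adjusted p = 1.19e-07) and by 0.18 ± 0.05 treated (adjusted p = 0.00402).

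KLF11 had 121, 118 and 114 normalized counts in the A2780 controls and 216, 220 and 210 after cisplatin, against 93.5, 104 and 84.4 in the Acis controls and 125, 130 and 140 after cisplatin. Treated A2780 libraries were far above all others, and untreated Acis libraries were the lowest. KLF11 rose by 0.87 ± 0.08 on the log2 scale in A2780 (SE, adjusted p = 7.53e-10) and by 0.48 ± 0.10 in Acis (adjusted p = 0.00055). Acis was lower than A2780 by -0.32 ± 0.10 untreated (adjusted p = 0.0107, and 0.0631 without Acis control replicate 3) and by -0.71 ± 0.08 treated (adjusted p = 5.44e-09). The pair thus lay on opposite sides between the lines: KLF10 was higher in Acis and KLF11 lower.

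KLF13, a regulator of the chemokine CCL5 in T cells, fell in both lines from very different levels. Its normalized counts were 400, 363 and 368 in the A2780 controls and 260, 278 and 267 after cisplatin. In Acis they were 885, 822 and 789 in the controls and 717, 693 and 747 after cisplatin. All 6 Acis libraries lay above all 6 A2780 libraries, and treated libraries lay below their controls. KLF13 fell by 0.49 ± 0.07 on the log2 scale in A2780 (SE, adjusted p = 6.27e-07) and by 0.21 ± 0.05 in Acis (adjusted p = 0.00112). The excess of Acis was 1.14 ± 0.05 untreated (adjusted p = 9.42e-17) and 1.42 ± 0.06 treated (adjusted p = 4.23e-18).

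**Figure D2:**
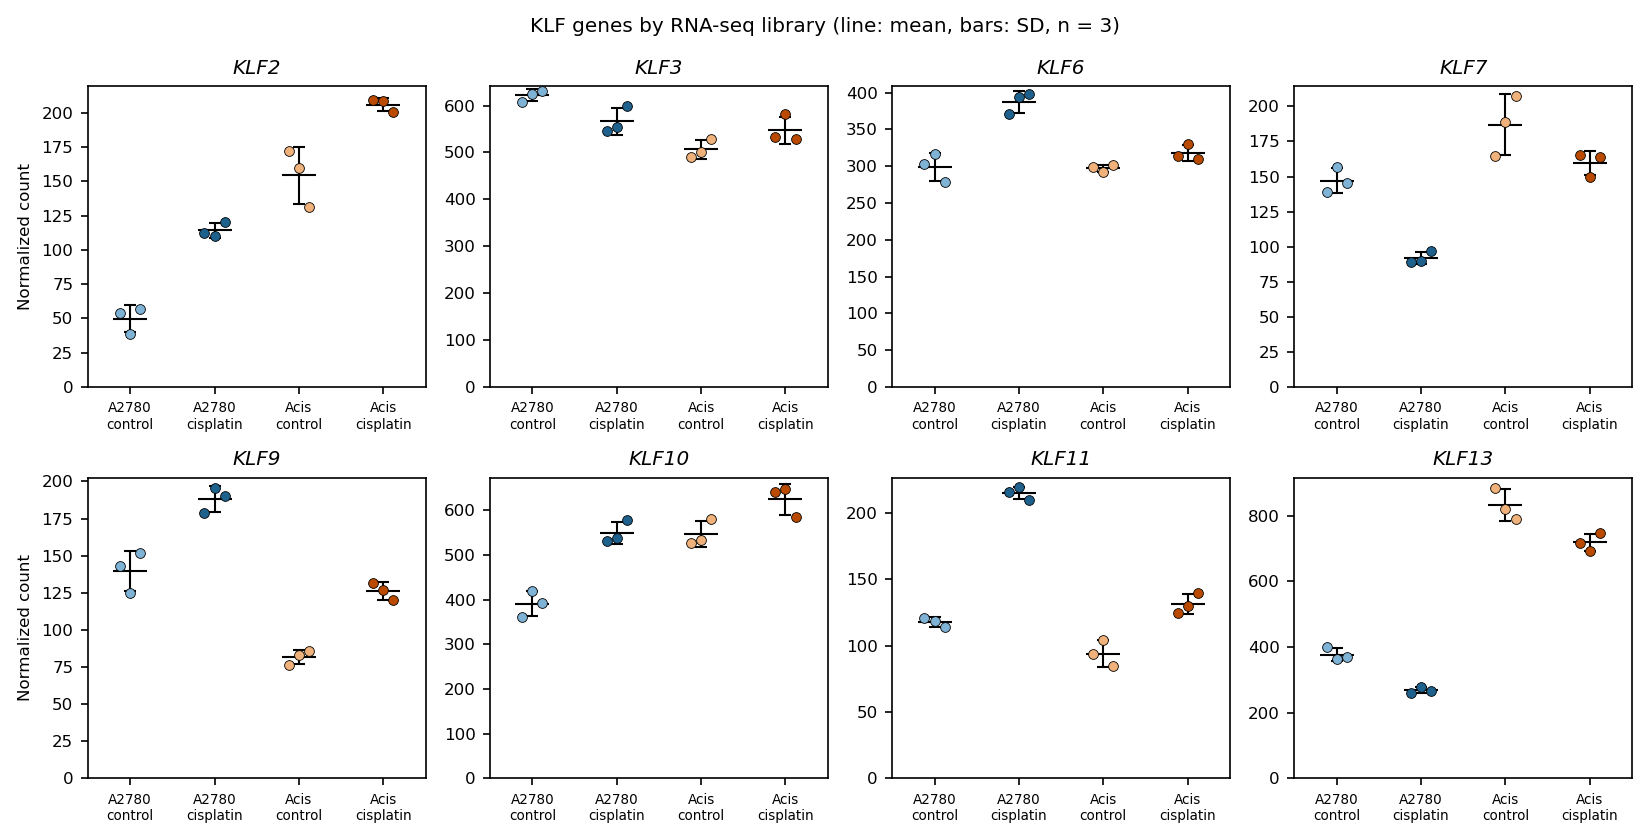
Normalized counts of the 8 tested KLF genes in each of the 12 RNA-seq libraries; points are libraries, horizontal lines group means and bars SD (n = 3), and each panel has its own axis from 0. KLF2 climbs from 38.5 to 56.6 in untreated A2780 to 200 to 209 in treated Acis, whereas KLF13 is at 693 or more in each Acis library and at 400 or less in each A2780 library.

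Between the untreated lines, KLF2, KLF7, KLF10 and KLF13 were higher in Acis and KLF3, KLF9 and KLF11 lower. These 4 and 3 genes stand against 28.2% of tested genes called higher and 30.6% called lower, so that most tested genes differed between the lines. KLF2 and KLF13 also had a log2 difference of at least 1, as did 6.99% of tested genes in that direction, while no KLF gene was lower by as much, which 12.2% were. After cisplatin, KLF2, KLF7, KLF10 and KLF13 were higher in Acis, against 31.8% of tested genes, and KLF6, KLF9 and KLF11 lower, against 31.2%. DESeq2 called 3 of the 4 higher, with KLF10 at an adjusted p of 0.0526. KLF13 alone among them kept a log2 difference of at least 1, which 7.28% of tested genes had in that direction and 11.9% in the other. The median log2 difference of the 8 genes was 0.16 untreated, with -0.01 over all genes, and 0.07 treated, with 0.00 over all. The summed normalized counts of the 10 genes were 2147 ± 18.3, 2389 ± 79.0, 2703 ± 14.0 and 2837 ± 35.7 (SD, n = 3). The order is A2780 control, A2780 cisplatin, Acis control and Acis cisplatin, and the groups did not overlap. This sum leans on the genes with high counts. KLF13 was at 377 ± 20.3 in untreated A2780 and 832 ± 48.8 in untreated Acis, while KLF3, KLF9 and KLF11 were lower in Acis.

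**Figure D3:**
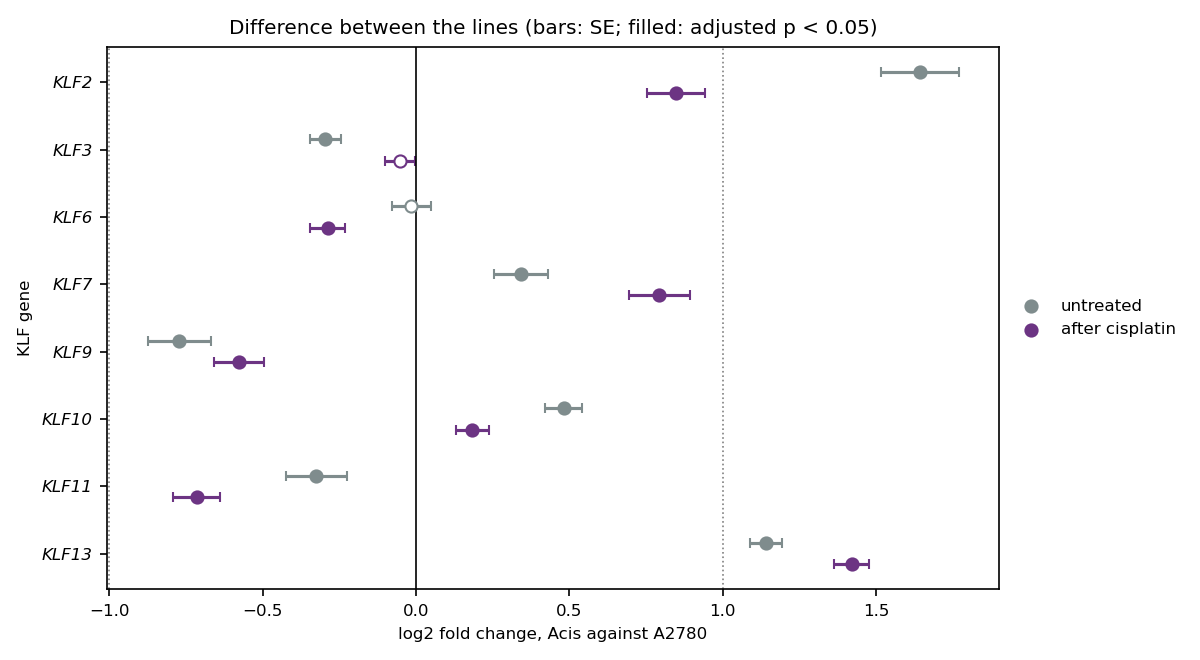
log2 fold change of Acis against A2780 for each tested KLF gene, untreated (grey) and after cisplatin (purple), with bars of 1 SE from edgeR; filled points passed the test. The gap narrows from 1.64 to 0.85 for KLF2 and widens from 1.14 to 1.42 for KLF13.

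Whether a KLF gene responded differently in the lines was tested as an interaction, the effect in Acis minus that in A2780. The cisplatin and line comparisons share control libraries, so they are not independent of one another and of this test. The response was more negative in Acis for KLF2 (-0.79 ± 0.16 on the log2 scale, SE, adjusted p = 0.00102), KLF6 (-0.27 ± 0.08, adjusted p = 0.0242), KLF10 (-0.30 ± 0.08, adjusted p = 0.0109) and KLF11 (-0.39 ± 0.13, adjusted p = 0.0476). It was more positive in Acis for KLF3 (0.24 ± 0.07, adjusted p = 0.017), KLF7 (0.45 ± 0.13, adjusted p = 0.0173) and KLF13 (0.28 ± 0.08, adjusted p = 0.0148). The 4 genes stand against 5.48% of tested genes called more negative and the 3 against 13.4% called more positive. Except for KLF3, each of these 7 had a fitted change in the same direction and of smaller size in Acis than in A2780, as the values above show. KLF3 was at -0.13 ± 0.05 in A2780 and 0.11 ± 0.05 in Acis, opposite in sign and similar in size. The interaction of KLF9, with 0.19 ± 0.13 (adjusted p = 0.406), did not pass. The call for KLF11 was lost in 12 of 19 alternatives, and under DESeq2 the interactions of KLF2 and KLF10 alone passed.

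The direction after cisplatin moved with the length of the gene in A2780, where the KLF3 fall lost its call in 8 of 20 alternatives. The genes that rose in A2780 span 3.86 kb (KLF2), 6.94 kb (KLF10), 9.29 kb (KLF6), 11988 bp (KLF11) and 30.1 kb (KLF9) from annotated start to end, and those that fell span 37.3 kb (KLF3), 99.7 kb (KLF7) and 109 kb (KLF13). Over all tested genes in A2780, the median log2 fold change was 0.21 for spans under 10 kb, 0.09 from 10 to 30 kb, -0.15 from 30 to 100 kb and -0.39 from 100 to 300 kb. Of genes between 100 and 300 kb, 69.5% were called lower and 2.56% higher. The same medians in Acis were 0.09, 0.07, -0.02 and -0.17. Among the KLF genes there, KLF13 alone fell, and KLF3 (0.11) and KLF7 (-0.22) did not pass the test. KLF2 and KLF10 in A2780 lay above the upper quartile of their span range, 0.48, and KLF11 above that of its own, 0.26, and KLF7 lay below the lower quartile of its range, -0.31, while KLF3, KLF6 and KLF13 lay between the quartiles of theirs. KLF9, whose 30054 bp place it at the lower edge of the range from 30 to 100 kb, rose in both lines to values above the upper quartiles of that range and of the one below it. The part of gene length in these changes was not tested.

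**Figure D4:**
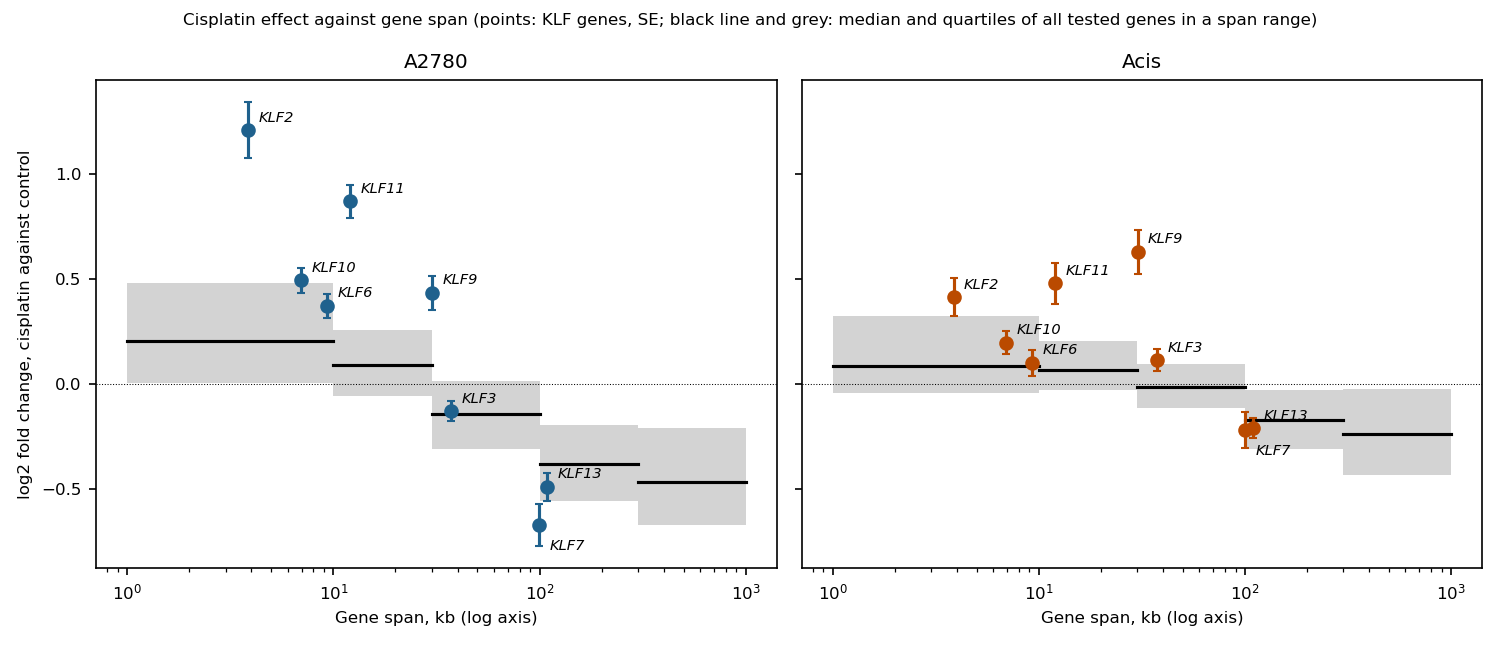
log2 fold change after cisplatin of each tested KLF gene (points, bars of 1 SE) against the span of the gene in kb on a log axis, in A2780 and Acis; black lines and grey bands are the median and quartiles of all tested genes in 5 span ranges. In A2780 KLF7 lies at -0.67, where the median of its range from 30 to 100 kb is -0.15, and KLF13 at -0.49, where that of its range from 100 to 300 kb is -0.39.

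Per kb of annotated exon, KLF10 had the highest level of the 10 genes in every group, 102, 144, 143 and 163 normalized counts per kb in A2780 control, A2780 cisplatin, Acis control and Acis cisplatin. KLF3 came next in A2780, at 91.8 and 83.7, with 74.8 and 80.8 in Acis. KLF13 stood below KLF10, KLF3 and KLF6 in untreated A2780, at 40.0 beside 48.8 for KLF6, and below KLF10 alone in untreated Acis, at 88.3. KLF2 was at 17.6 and 40.6 in A2780 and at 54.8 and 73.1 in Acis, and KLF7 at 15.3, 9.57, 19.5 and 16.6 was the lowest of the tested genes in every group but untreated Acis. There the lowest was KLF9, at 15.7. The libraries of KLF2 and KLF7 overlapped on this scale in untreated A2780, and those of the other neighbours named here did not. KLF4 and KLF5 had at most 1.23 and 0.98 normalized counts per kb in any group.

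Open chromatin at the starts was read from the peak lists, with a peak counted when it overlapped the 1 kb on either side of the canonical start (GENCODE 44, GRCh38). By this measure 6, 7, 6 and 8 of the 10 genes had a peak in the A2780 control, A2780 cisplatin, Acis control and Acis cisplatin lists, against 72.9%, 74.4%, 66.4% and 70.7% of all tested genes. The lists hold 34979, 32159, 24485 and 27321 peaks with a median fold enrichment that ranged from 8.79 in A2780 cisplatin to 12.8 in Acis control, and with 1 list per condition differences between them have no replicate check. KLF3, KLF6, KLF7, KLF9 and KLF13 had a peak within 1 kb of the start in each list. The KLF9 peaks lay wholly downstream of the start, beginning 175 to 201 bp from it. None of them overlapped the KLF9 window printed above. The fold enrichment over MACS2's local background was 21.4, 15.6, 19.8 and 22.3 at KLF6, 21.9, 15.4, 23.8 and 27.3 at KLF7, 12.2, 8.72, 15.6 and 16.9 at KLF9, and 14.3, 5.67, 16.4 and 13.0 at KLF13. At each of these 4 starts the value was lowest in the A2780 cisplatin list, which also had the lowest median of all lists. The KLF3 peak downstream of its start differed, with 4.83, 6.94, 7.14 and 8.54 in the same order, lowest in the A2780 control list.

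At other starts, and over the KLF3 start itself, a peak was found in some lists only. KLF11 had 1 in the Acis lists alone, at chr2:10043968-10044292 with a fold enrichment of 8.03 in the control list and at chr2:10043968-10044639 with 7.50 in the cisplatin list. It covers the window with the CRE printed above and lies in the gene whose RNA was lower in Acis than in A2780. The nearest A2780 peaks lay 29.0 kb from that gene's canonical start in the control list and 13.9 kb in the cisplatin list. At KLF10, peaks within 1 kb were listed after cisplatin only, with a fold enrichment of 3.05 in A2780 and 5.49 in Acis, and each control list had its nearest peak 1.49 kb away. These were weak peaks: 1.04% and 11.2% of the peaks in their lists had a fold enrichment as low or lower. The cisplatin lists hold peaks shared by 2 replicates and the control lists peaks shared by 3, so the lists differ in stringency. KLF5, almost silent in RNA, had peaks of 18.6, 11.7 and 13.7 in all but the Acis control list. KLF3, with peaks downstream of the start in every list, had a peak that covers its start in the Acis lists alone. It had 4.55 in control and 5.66 in cisplatin.

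KLF2 and KLF4 had no listed peak within 1 kb of the start in any list, nor inside the gene. The nearest peaks lay 51.8, 51.8, 58.3 and 58.4 kb from the KLF2 start and 64.1, 64.1, 67.1 and 64.3 kb from the KLF4 start. For KLF2 this stood beside 49.7 to 206 normalized counts of RNA, so that its differences between groups had no counterpart in these lists. The lists hold only regions that passed the peak caller, and a start without a peak is not shown to be closed.

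**Figure D5:**
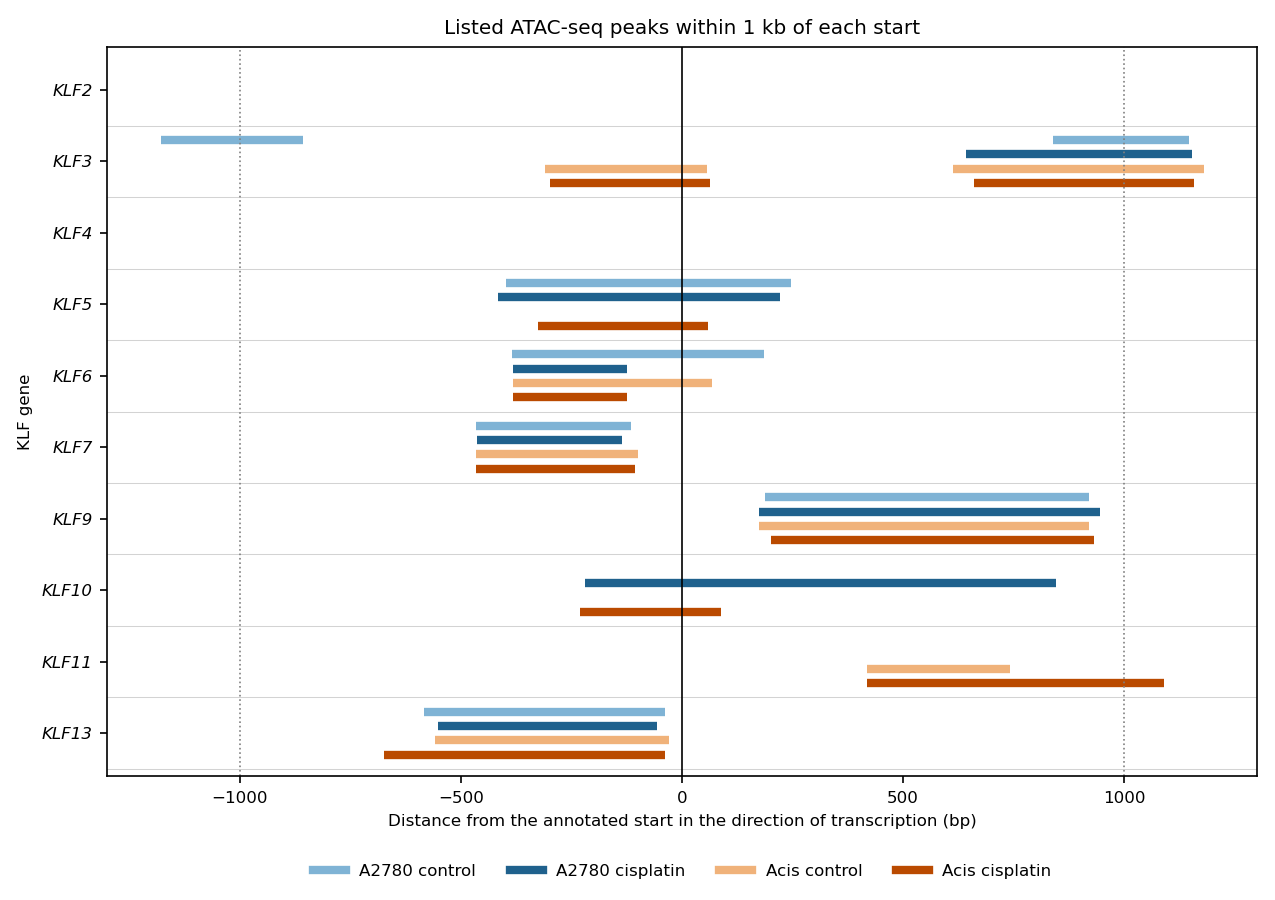
Listed ATAC-seq peaks (bars) by distance in bp from the annotated start of each KLF gene, in the direction of transcription, 1 colour per peak list; dotted lines mark 1 kb on either side. KLF11 has bars for the 2 Acis lists alone, KLF10 for the 2 cisplatin lists alone, and KLF2 and KLF4 have none.

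For each tested KLF gene, the genes with the most similar pattern were those with the smallest root mean square difference of log2 CPM (library-scaled counts), each gene centred on its own mean, over the 12 libraries and among 10887 genes with at least 50 normalized counts on average. KLF2 was most like TRIB1, which encodes a pseudokinase, and PHLDA2, with differences of 0.156 and 0.229 beside a range of 2.38 in KLF2 itself. KLF11 was most like IER2 and TOB1 (0.0724 and 0.0808, own range 1.36), early-response and antiproliferative genes. KLF13 was most like NFIB, another transcription factor gene, and NECTIN1 (0.0775 and 0.0838, own range 1.75). The nearest genes to KLF10 were FAM120AOS and POLR2I (0.0813 and 0.0872, own range 0.834), and to KLF9 RNF103 and SMIM10L1 (0.12 and 0.124, own range 1.33). KLF7 was nearest to KIF20B and HERC2P3 (0.0562 and 0.0809, own range 1.20), KLF6 to BUD31 and TMEM11 (0.0495 and 0.0496, own range 0.515) and KLF3 to EID1 and ATAD1 (0.0358 and 0.044, own range 0.367). No KLF gene was among the 2 nearest of another. The libraries share the 4 groups, so likeness follows mostly from 4 group means.

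Of 8 other KLF genes looked for, KLF14, KLF15, KLF16 and KLF18 were listed and 3 were tested. KLF15 rose in A2780, by 0.34 ± 0.13 on the log2 scale (SE, adjusted p = 0.0328), with groups that overlapped, and in Acis its value was 0.30 ± 0.13 (adjusted p = 0.114). No other tested KLF gene passed after cisplatin in either line by edgeR, and at an unadjusted p under 0.05 KLF15 alone did so, in each line, while DESeq2 called 0. Between the untreated lines KLF14 was lower in Acis, by -1.32 ± 0.18 (adjusted p = 2.75e-07), and KLF16 higher, by 0.51 ± 0.05 (adjusted p = 2.43e-09). KLF18 had at most 4 raw counts in a library. Of the 9 SP factors, close relatives with the same type of zinc fingers, 5 were tested: 1 rose and 3 fell in A2780, and 1 rose and 1 fell in Acis, beside 21.2% and 28.2% of all tested genes in A2780 and 9.35% and 12.4% in Acis. With DESeq2 the falls were 2 and 0. SP6 rose in both, by 0.96 ± 0.27 (adjusted p = 0.00397) and 0.91 ± 0.21 (adjusted p = 0.0018), and SP3 and SP1 fell in A2780, by 0.24 ± 0.04 (adjusted p = 2.52e-05) and 0.17 ± 0.04 (adjusted p = 0.000191).

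Of 3 acetyltransferase genes, 3 fell in A2780 and 2 in Acis, beside 28.2% and 12.4% of all tested genes, with CREBBP, which encodes CBP, at -0.51 ± 0.05 (adjusted p = 5.53e-10) and -0.42 ± 0.04 (adjusted p = 5.84e-08) and EP300 at -0.31 ± 0.03 (adjusted p = 1.97e-08) and -0.24 ± 0.03 (adjusted p = 2.63e-06) on the log2 scale (SE). The other member, KAT2B, had overlapping groups in A2780 (-0.52 ± 0.21, adjusted p = 0.0396), and DESeq2 did not call it (adjusted p = 0.0545). The median log2 fold change of the 3 genes was -0.51 in A2780 and -0.24 in Acis. Among 6 corepressor genes 2 fell in A2780, a share near that of all genes. These were SIN3A and CTBP2, both at -0.22 (SE 0.04, adjusted p = 2.83e-05 and 0.000155). In Acis 3 fell by edgeR. DESeq2 called 2 of them, CTBP1 (adjusted p = 0.0367) and CTBP2 (adjusted p = 0.00786), but not SIN3A (adjusted p = 0.0523). Of 4 ubiquitin ligase genes that act on KLF proteins or the TGF-beta pathway, 3 fell in A2780 and 2 in Acis. SMURF1 was at -0.29 ± 0.04 in A2780 (adjusted p = 3.31e-06) and -0.39 ± 0.04 in Acis (adjusted p = 2.38e-07). BTRC was at -0.31 ± 0.07 (adjusted p = 0.000437) and -0.33 ± 0.08 (adjusted p = 0.00291). WWP1, which targets KLF5, was at -0.44 ± 0.06 in A2780 (adjusted p = 2.36e-06) and -0.07 ± 0.05 in Acis (adjusted p = 0.422).

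Of the cascade upstream of KLF2, 5 of 6 genes were tested. In A2780 the kinase gene MAPK7, which encodes ERK5, rose by 0.18 ± 0.07 on the log2 scale (SE, adjusted p = 0.0385), a call that DESeq2 did not make (adjusted p = 0.246), and 3 MEF2 genes fell by both tools, beside 21.2% of all tested genes called higher and 28.2% called lower. In Acis edgeR called 0 and DESeq2 called 0, and at an unadjusted p under 0.05 MEF2A alone passed, at -0.14 ± 0.05. MEF2C had 1035, 1040 and 1018 normalized counts in the A2780 controls and 678, 702 and 733 after cisplatin, a fall of 0.55 ± 0.04 (adjusted p = 1.05e-10). In all 6 Acis libraries it had 0 counts. Against a floor of 3 counts over the group, it was at least 947-fold lower in untreated Acis and at least 722-fold lower in treated Acis. MEF2C and KLF2 differed between the lines in opposite directions. MEF2A was lower in untreated Acis, at -0.27 ± 0.05 (adjusted p = 4.38e-05), and MEF2D was at 0.13 ± 0.05 (adjusted p = 0.0255, and 0.113 with DESeq2). The part of MEF2 factors, or of the MEF2 match in the KLF2 window, in the KLF2 levels was not tested.

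All 9 genes of the TGF-beta pathway looked for were tested, and 1 rose and 5 fell in A2780 while 1 rose and 2 fell in Acis, beside 21.2% and 28.2% of all tested genes in A2780 and 9.35% and 12.4% in Acis. DESeq2 called 0 higher and 5 lower in A2780 and 0 higher and 1 lower in Acis, and at an unadjusted p under 0.05 edgeR had 1 higher in A2780 and 3 in Acis. SMAD2, a signal transducer, was at -0.55 ± 0.04 on the log2 scale in A2780 (SE, adjusted p = 2.7e-11) and -0.03 ± 0.04 in Acis (adjusted p = 0.733). The receptor gene TGFBR1 fell by 0.42 ± 0.05 in A2780 (adjusted p = 1.4e-07) and rose by 0.20 ± 0.05 in Acis (adjusted p = 0.00737, and 0.119 with DESeq2). KLF10 and KLF11 rose in both. Among 7 genes reported as targets of KLF factors, 6 were tested and CDKN1A, which encodes the cell cycle inhibitor p21, was the 1 that changed with cisplatin in either line. CDKN1A had 537, 524 and 533 normalized counts in the A2780 controls, 946, 954 and 968 after cisplatin, 153, 155 and 149 in the Acis controls and 255, 253 and 299 after cisplatin. It rose by 0.85 ± 0.04 in A2780 (adjusted p = 1.27e-14) and by 0.82 ± 0.08 in Acis (adjusted p = 9.56e-09), and untreated Acis was lower by -1.80 ± 0.07 (adjusted p = 5.64e-19). Of the 6 targets, 2 were higher in untreated Acis and 3 lower, beside 28.2% and 30.6% of tested genes. PPARG was at 7.27 and CCND1 at 0.09, and S1PR1 at -5.64 and NOS3 at -0.60. DESeq2 called 1 higher and 3 lower, and did not call CCND1 (adjusted p = 0.124). PPARG averaged 0.31 normalized counts in untreated A2780 and S1PR1 1.42 in untreated Acis, both near the floor. Both KLF6 and CDKN1A rose in A2780, and in Acis CDKN1A rose while KLF6 did not pass the test.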

How the data were processed

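RNA-seq of total, ribosome-depleted, stranded RNA and ATAC-seq were used, and XR-seq, a map of excision repair, was not used here. The authors aligned single-end RNA reads to hg38 with STAR, removed PCR duplicates with Picard and counted reads per gene on the reverse strand with htseq-count, so the deposited values are raw counts. For ATAC-seq the authors aligned reads with Bowtie2 and called peaks with MACS2 on 3 replicates of each untreated and 2 of each treated condition, and the deposited list of a condition holds peaks shared by its replicates, with a fold enrichment and −log10 p and q values. Versions named in the submitters' notes include STAR 2.7.3, HTSeq 0.11.1 and Bowtie2 2.4.1.

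Counts were tested with edgeR 4.0.16 (R 4.3.3): TMM normalization, filterByExpr, and the quasi-likelihood test in 1 model of 4 groups and 12 libraries with 8 residual degrees of freedom, with Benjamini-Hochberg adjustment over 15760 genes at 0.05. The study's methods also asked for a log2 fold change of 1 or more in either direction, and calls under this demand are given beside the others. The ± after a log2 value is a standard error, the size of the value divided by the root of its F statistic. The test was tested on simulated data. Alternatives were DESeq2 1.42.0, RLE size factors, total counts, no filter, a mean of at least 50 counts, the compared groups alone, a replicate block, merged replicates and each library left out. Peaks were tied to starts in GENCODE 44, which holds 23513 of the 23622 gene IDs, and intervals of count ratios are exact binomial intervals at 95%. Text names all 10 KLF genes, up to 3 genes of each list with the smallest adjusted p after cisplatin, each other KLF gene, the markers, the 2 genes most like each tested KLF gene, and genes of the lists that a count of calls turns on. The genes and lists were chosen with earlier results of these data known.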

Additional observations from a re-analysis of the deposited data

Results flagged for a closer look

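For 7 KLF genes the response to cisplatin differed between the lines by the interaction test (edgeR, adjusted p under 0.05). The effect in Acis minus that in A2780, on the log2 scale, was -0.79 for KLF2, -0.27 for KLF6, -0.30 for KLF10 and -0.39 for KLF11, and it was 0.24 for KLF3, 0.45 for KLF7 and 0.28 for KLF13. KLF2, KLF10 and KLF11 rose less in Acis and KLF13 fell less there, while KLF6 and KLF7 did not pass in Acis (0.10 and -0.22). KLF3 was at -0.13 in A2780 and at 0.11 in Acis.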

How the results depend on the processing

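Of 792 alternative values of single genes, 742 kept their direction and side of the threshold, 46 lost the call, 3 gained one and 1 turned, and of 370 counts of KLF genes 357 stayed within 1.5 times. With no filter or with DESeq2, 2 KLF genes in place of 1 passed both thresholds higher in A2780. In Acis 2 in place of 1 were called lower under RLE size factors, and 1 to 2 when a library was left out (2 without Acis control replicate 1). Interactions more negative in Acis numbered 2 in place of 4 with no filter, with merged replicates and with DESeq2, and 2 to 4 when a library was left out, with 2 without A2780 control replicate 1 or 3, Acis control replicate 1 or Acis cisplatin replicate 1. Interactions more positive in Acis numbered 1 in place of 3 with total counts and 0 with DESeq2, which left those of KLF2 and KLF10 (KLF13 adjusted p = 0.0858, KLF6 0.117, KLF3 0.118, KLF7 0.121, KLF11 0.163). The KLF11 interaction lost its call in 12 of 19 alternatives, with an adjusted p of up to 0.203. The KLF3 fall in A2780 lost its call in 8 of 20 alternatives, among them those without A2780 control replicate 2 or 3 or A2780 cisplatin replicate 1 or 2, with values from -0.17 to -0.01. The KLF10 rise in Acis lost its call in 5 of 20, without Acis control replicate 1 or 2 or Acis cisplatin replicate 1 or 2 and with DESeq2 (adjusted p = 0.141). KLF11 between untreated lines lost it without Acis control replicate 3 (adjusted p = 0.0631) and with DESeq2 (0.076). KLF6 between untreated lines ranged from -0.0758 to 0.0114 when a library was left out and turned to 0.0114 without A2780 control replicate 2. Total counts moved the median of all genes in A2780 from -0.01 to 0.10. The cause of these changes was not tested.

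Replicate numbers did not pair the samples, since same-numbered libraries deviated with correlations of -0.21 to 0.28 over 18 pairs. With the replicate number as a block, 58 of 58 values kept their call, and the KLF2 rise in A2780 was 1.21. Depth limits KLF4 and KLF5, which had at most 6 counts in a library.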
